A study of Mus musculus with 622 samples.

Results

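The introns described here carried RNA edits repeatedly in single mouse embryos that expressed an editor joined to AGO2. The deposited intron table lists 8393 entries, 1 per gene, and 2064 of them (24.6%) were above 0 in at least 25% of the AGO2-only columns, that is in 6 or more of 23. Another 4164 entries were above 0 in fewer of these columns, and 2165 were at 0 in all of them. The set was thus chosen by the AGO2-only intron values, which are given below as a description with no test. In all 3 editing tables, the columns of AGO2-only embryos 6 and 11, and those of miR-200c embryos 20 and 24, were above 0 in exactly the same entries, with a constant ratio between their values. Each such pair differed by less than sampling noise and was counted as 1 sample at the mean of its columns. The rule was left on the 23 columns, and 91 of the 2064 introns reached 6 only because 1 library fills a pair of columns. Counted once per library, 1973 introns meet the rule.

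The editing assay, Ago-REMORA, joins an RNA editor to AGO2, the protein that carries microRNAs to their targets, so that edits accumulate on RNA near the fusion. It was run on late 2-cell parthenotes, embryos activated without sperm, from oocytes of superovulated FVB/NJ females 5 to 7 weeks old. The groups compared were 26 distinct embryos with the AGO2 editor and miR-200c-3p, 28 with the AGO2 editor and miR-465c-3p, 22 with the AGO2 editor only, and 15 whose label (abe) names the editor without AGO2, called editor alone here. The microRNAs were synthetic copies injected into the cytoplasm. Activation was in strontium chloride with EGTA and cytochalasin B, and eggs of about 5 females were pooled on each experimental day. Messenger RNA was measured in other parthenotes, as RSEM expected counts from poly(A) libraries of single embryos collected 46 h (4-cell) or 28 h (2-cell) after activation. The miR-200c experiment held 24 GFP-injected controls at 4-cell and 28 at 2-cell, with 26 low-dose and 23 mid-dose embryos at 2-cell. The miR-465c experiment held 23 controls at 4-cell and 22 at 2-cell, with 21 injected embryos at 2-cell. The low dose was about 200 molecules, while the amounts of the mid dose and of the 2-cell miR-465c injection are not stated in the labels. About 8 embryos per group came from each day, and the labels do not say which. The p-values thus cannot separate spread between embryos within days from spread across days.

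Total expected counts ran from 404357 to 5880285 per embryo (median 2782999 over 167 embryos), and 3 embryos had fewer than 1000000. The editing values are in a unit the headers call EPKM, and dividing out each gene's annotated intron length left whole numbers of edits over an embryo-specific denominator of 64184 to 273327 (median 174242 over 91 embryos). Of the intron values, 83.9% were 0. Every intron entry that could be placed on the annotation lay on the + strand (8389 of 8389), as did all 6063 placed 3' UTR entries and all 6511 placed coding entries, whereas 50.2% of 55450 annotated genes are on that strand. Introns of minus-strand genes are therefore not analysed here. The mice are FVB/NJ, the reads were mapped to mm10, and no embryo without an editor is used in the editing comparisons, so endogenous editing, sequence differences between strains and edits made by the editor cannot be told apart in a single entry. Whether the libraries kept strand is not stated, so edits in RNA of an overlapping or nested gene also cannot be told apart from edits in the intron.

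Introns are transcribed with the gene and removed in the nucleus during splicing, so intronic RNA is a trace of unspliced transcripts, retained introns or excised introns that have not yet decayed. The mouse zygote begins with RNA stored in the oocyte. Its own genome becomes fully active at the 2-cell stage, while maternal RNA is cleared. MicroRNAs loaded in AGO2 pair with targets mainly through their seed, usually in 3' UTRs of mature mRNA in the cytoplasm.

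The sequences of both microRNAs are given because their seeds set which introns could pair with them. They are from RefSeq on GRCm38.p6, written 5′ to 3′ with the seed (bases 2 to 8) in capitals.
mmu-miR-200c-3p: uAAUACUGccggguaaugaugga
mmu-miR-465c-3p: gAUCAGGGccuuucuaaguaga
A full seed match in an intron reads CAGTATT for miR-200c-3p and CCCTGAT for miR-465c-3p, and these words share no end that would let them overlap. On the transcribed strand the recurrently edited introns held 0.0862 miR-200c matches per kb, against 0.0784 in the other entries. For miR-465c the densities were 0.0671 in the recurrently edited introns and 0.0685 in the others. On the opposite strand, which the RNA does not carry, the recurrently edited introns held 0.0759 and 0.0630 matches per kb for the miR-200c and miR-465c words, and the others 0.0719 and 0.0643. At least 1 miR-200c match lay in 81.4% of the recurrently edited introns and 61.4% of the others, and at least 1 miR-465c match in 78.8% and 61.6%. The shares thus differed more than the densities did, and the recurrently edited introns were longer.

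The first and last 30 bases of the largest intron are shown for Gm1965, Gm42980 and Cbx1, because Gm1965 and Gm42980 differed between editor groups, and Cbx1 is a well-known protein-coding gene edited in every AGO2-only embryo. Capitals mark the 2 bases at each splice junction. They are GT and AG in each, the usual ends of a spliced intron. All are on the + strand of GRCm38, at chr6:89141086-89141115 and chr6:89144518-89144547 (Gm1965), chr5:127579107-127579136 and chr5:127579409-127579438 (Gm42980), and chr11:96789354-96789383 and chr11:96800741-96800770 (Cbx1).
Gm1965 intron start: GTaaggatattgggtacaaggggaggttgg
Gm1965 intron end: tgcttgaacatattgagagacatttgtcAG
Gm42980 intron start: GTaaggaaatctcccttgtcttcccttgtc
Gm42980 intron end: ctatatttgtcattttttttttcctcatAG
Cbx1 intron start: GTgaagaggcgggctggaggcggggtgtgt
Cbx1 intron end: atgccctttttatttcctttaattgtttAG
The introns of Gm1965 (3944 bp in all) and Gm42980 (332 bp) hold no seed match of either microRNA, and those of Cbx1 (15241 bp) hold 2 for miR-200c and 0 for miR-465c. The genes shown are examples. In Fars2, which also differed between editor groups, the largest stretch free of exons begins with CA, and in Orc1 it ends with CT. Not every such stretch thus has the usual ends of a spliced intron.

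Recurrently edited introns belonged to long, well-expressed genes. Total intron length per gene had a median of 47921 bp (quartiles 19472 and 114445) in them, against 16716 bp (6328 and 40825) in the other entries, and 28.6% against 9.09% exceeded 100 kb. An exon of another annotated gene lay inside 58.8% of the recurrently edited introns and 40.4% of the others. Repeats masked in the reference covered a median of 31.4% and 26.3% of the intron sequence. Of the recurrently edited entries, 1763 are annotated as protein-coding, 126 as lincRNA and 77 as antisense RNA. The 2-cell mRNA level, measured in embryos that played no part in the choice, had a median of 6.63 CPM (counts per 1000000) per kb of exon for the 1842 of these genes with a count and an annotated length, against 1.64 for 5145 others, in controls of the miR-200c experiment. In controls of the miR-465c experiment the medians were 6.74 and 1.70. At a cut of 10 CPM, 75.1% of the recurrently edited genes and 44.9% of the others were expressed in 2-cell controls of the miR-200c experiment. Across entries, the number of AGO2-only columns with edits ran with intron length (Spearman 0.348 over 8356 entries) and with 2-cell CPM per kb (0.359 over 6979), although length and level ran against each other (-0.20 over 6979). These are descriptions across genes that share libraries and depth.

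At the threshold itself, the 3 entries in 6 AGO2-only columns that ranked first by level were Gm13140, Gm7729 and Rnf167, with a mean EPKM of 9.25, 4.68 and 5.35 over the AGO2-only embryos. The entries just outside, in 5 columns, were Gm44796, Adrm1 and Gm16243, with 6.49, 4.22 and 3.2. Levels just inside and just outside thus overlapped. A rule of 50% of columns would leave 746 introns.

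The same introns were edited recurrently in the groups that did not enter the rule. Of the 2064, 1573 (76.2%) were above 0 in at least 25% of embryos with the AGO2 editor and miR-200c, 1620 (78.5%) with the AGO2 editor and miR-465c, and 1519 (73.6%) with the editor alone. Only 6, 2 and 52 of them were at 0 in every embryo of these groups. The other entries reached the same recurrence far less often, with 308, 372 and 381 of 6329. An intron of the set was above 0 in a median of 38.5% of miR-200c embryos, 39.3% of miR-465c embryos, 40.9% of AGO2-only embryos and 33.3% of editor-alone embryos. The last group is the smallest and had a lower median denominator (143063, against 177698, 172294 and 193024), and the part of depth in these shares was not tested.

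Between 23.2% and 59.7% of the introns were above 0 in any 1 embryo. The median embryo had 42.9% with AGO2 and miR-200c, 43.9% with AGO2 and miR-465c, 49.3% with AGO2 only and 42.6% with the editor alone. Scaled to the denominator, edits in the 1615 introns of the set whose edits could be recovered ran from 823 to 3065 per 100000 units with a median of 1127 in miR-200c embryos. They ran from 770 to 2195 (median 1248) in miR-465c embryos, from 853 to 2107 (median 1094) in AGO2-only embryos and from 727 to 1644 (median 1130) in editor-alone embryos. The groups overlapped almost throughout. These introns held a median of 79.1%, 79.7%, 81.8% and 79.0% of all recovered intron edits in the 4 groups, in the same order.

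**Figure D1:**
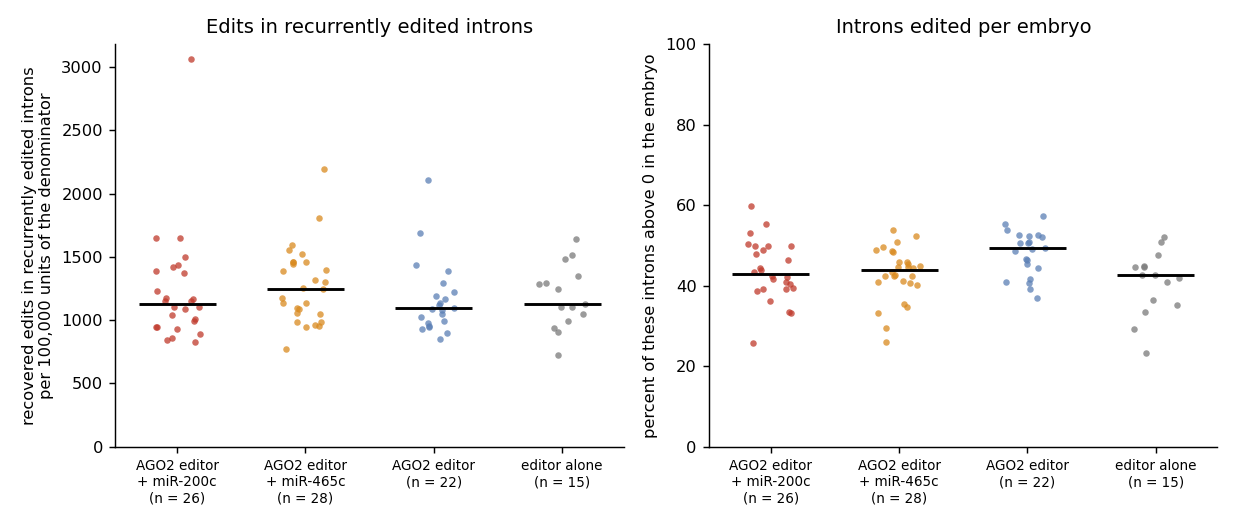
Editing of the recurrently edited introns in each of 91 single 2-cell embryos, by editor group, with a bar at the median. Left, edits per 100000 units of the embryo's denominator in the 1615 introns with recovered edits. Right, percent of all 2064 introns above 0. The groups overlap in both panels. The medians on the left lie between 1094 and 1248. A single miR-200c embryo, number 10, with a low denominator of 69326, stands apart at 3065.

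AGO2 was associated with more editing in the 3' UTRs and coding sequences of these genes and with no detectable change in their introns. Edits per unit of denominator were set to a mean of 1 in editor-alone embryos. In the introns the values ran from 0.703 to 2.58 (median 0.963) with AGO2 and miR-200c, from 0.663 to 1.85 (median 1.05) with AGO2 and miR-465c, from 0.727 to 1.85 (median 0.932) with AGO2 only, and from 0.608 to 1.40 (median 0.972) with the editor alone. In the 3' UTRs of the same genes (1571 entries) they ran from 1.30 to 2.23 (median 1.73), from 1.45 to 2.79 (median 1.78) and from 1.32 to 2.55 (median 1.83) in the 3 AGO2 groups, against 0.899 to 1.14 (median 0.998) with the editor alone. No AGO2 embryo of any group overlapped the editor-alone embryos there. Coding sequences (1657 entries) lay between, with medians of 1.31, 1.51 and 1.44 in the AGO2 groups and 0.994 with the editor alone.

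The test was made over the whole tables, with AGO2-only embryos left out, as a two-sided permutation test with 100000 resamples and Benjamini-Hochberg adjustment over 10 comparisons. It was added after the data were seen. For introns the ratio to editor alone was 1.04 with miR-200c (log2 0.02, SE 0.12, adjusted permutation p = 0.857) and 1.07 with miR-465c (log2 0.10, SE 0.11, adjusted permutation p = 0.433). Neither shows that introns were unaffected, since an SE of 0.12 leaves room for moderate changes. For 3' UTRs the ratios were 1.71 and 1.95, and for coding sequences 1.33 and 1.56, each with a permutation p of 2e-05, the smallest that the resamples can give, and an adjusted p of 3.33e-05. Set against introns in the same embryo, the 3' UTR rate was 1.68 times that of editor alone with miR-200c and 1.80 times with miR-465c (adjusted permutation p = 3.33e-05 for both). The coding rate relative to introns was 1.30 and 1.43 times that of editor alone (adjusted permutation p = 0.0137 and 0.000829). The change with AGO2 and a microRNA thus differed between regions in group means. These p-values do not say that the difference exceeded the spread between single embryos. Each table has its own denominator, and what the denominator counts is not stated.

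**Figure D2:**
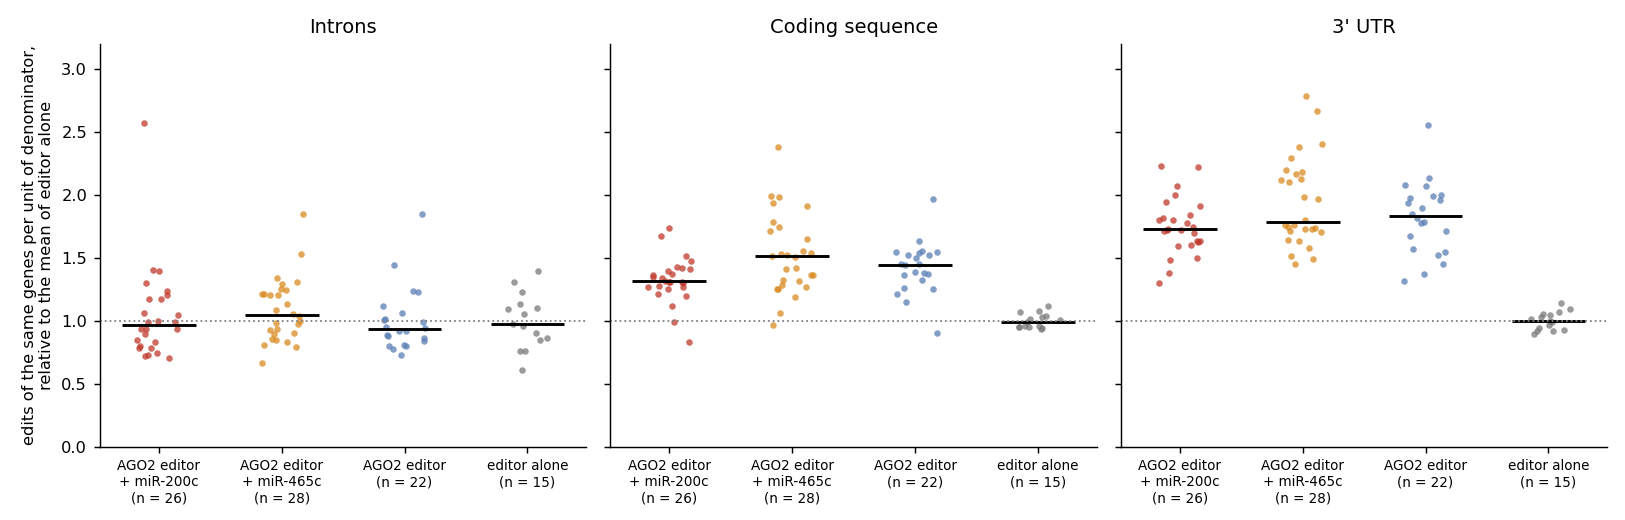
Edits per unit of denominator in genes with recurrently edited introns, by transcript region and editor group, each point 1 embryo and each bar a median, relative to the mean of the editor-alone embryos (dotted line at 1). Medians of the AGO2 groups lie between 0.932 and 1.05 in introns, between 1.31 and 1.51 in coding sequence and between 1.73 and 1.83 in 3' UTRs.

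Single introns were compared with limma on log2(EPKM + 0.0356), a scale that understates changes of weakly edited introns. The fit held the 3 groups not used by the rule and tested 3743 entries above 0 in at least 10% of embryos, 2026 of them recurrently edited. With AGO2 and miR-200c against editor alone, 0 recurrently edited introns passed an adjusted p of 0.05 (background 0.0% higher and 0.0% lower). Before adjustment 108 of them lay below 0.05, against 199 of all 3743 entries, and no entry of the table had an adjusted p under 0.537. With AGO2 and miR-465c against editor alone, 3 recurrently edited introns were higher (background 0.0801%) and 0 were lower (background 0.0%). At an unadjusted p under 0.05 were 156 recurrently edited introns, against 253 of all 3743 entries. The median log2 change of the recurrently edited introns was 0.04 for miR-200c, against 0.03 over all entries, and 0.02 for miR-465c, against 0.02. Between both microRNAs directly, 0 passed (background 0.0% each way, smallest adjusted p 0.431). Here 119 recurrently edited introns were at an unadjusted p under 0.05, against 206 of all 3743 entries. The first pair of comparisons shares the editor-alone embryos. In that pair AGO2 and the microRNA change together, so their parts cannot be told apart. A miR-200c or miR-465c difference below means the AGO2 group with that microRNA minus editor alone. The median SE of a recurrently edited intron was 0.43 for miR-200c and 0.42 for miR-465c. A change of 1 on this scale in such an intron would thus not have been called. The lincRNA D6Ertd474e, with a miR-465c difference of 1.61 (SE 0.39), did not pass (limma adjusted p = 0.0573). It passed in the count test on recovered edits described next, with 1.57 (SE 0.36, edgeR adjusted p = 0.00331).

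Recovered edits allowed a count test as well, edgeR with the denominators as library sizes, which was added after the data were seen and called more introns. For miR-200c against editor alone it called 12 recurrently edited introns higher (background 0.503%) and 3 lower (background 0.335%) of 1586. For miR-465c against editor alone it called 26 higher (background 1.04%) and 3 lower (background 0.302%). For miR-200c against miR-465c it called 5 higher (background 0.235%) and 8 lower (background 0.637%). The set was chosen on embryos with the AGO2 editor, so the choice itself favours introns higher with AGO2 than with editor alone. Shares of the set above background in comparisons with editor alone, by limma or edgeR, are therefore no result about the set. Fisher's exact test on embryos above 0 called 0 in each comparison, with 73, 109 and 83 recurrently edited introns at an unadjusted p under 0.05. Over all 3743 entries the numbers were 118, 159 and 139.

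The introns called higher with AGO2 and miR-465c than with editor alone were those of 2 lincRNAs and of Fars2, the mitochondrial phenylalanyl-tRNA synthetase. The parts of AGO2 and of miR-465c in these calls cannot be told apart. Gm1965 (lincRNA, chr6:89140994-89147388, + strand, GRCm38) was above 0 in every embryo of all groups. Its EPKM ran from 22.8 to 274 (median 75.9) with AGO2 and miR-200c, from 32.6 to 467 (median 161) with AGO2 and miR-465c, from 40.7 to 269 (median 114) with AGO2 only and from 8.86 to 113 (median 38.9) with the editor alone. The highest editor-alone embryo thus lay below the median of miR-465c embryos, with overlap between all groups. The difference from editor alone was 1.80 (SE 0.31, limma adjusted p = 0.000481) for miR-465c and 0.90 (SE 0.31, limma adjusted p = 0.667) for miR-200c. On recovered edits the differences were 1.78 (SE 0.14, edgeR adjusted p = 5.61e-33) and 0.92 (SE 0.14, edgeR adjusted p = 2.5e-08). Directly, miR-200c minus miR-465c was -0.90 (SE 0.26, limma adjusted p = 0.652) and -0.86 on recovered edits (SE 0.11, edgeR adjusted p = 1.85e-11). For Gm1965 the edgeR SEs lay well below the limma SEs of the same embryos, so these edgeR p-values may overstate the evidence.

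Fars2 (chr13:36117412-36726280, + strand, introns of 603122 bp that include exons of other genes) was edited in 22 of 26 embryos with AGO2 and miR-200c, 26 of 28 with AGO2 and miR-465c, 21 of 22 with AGO2 only and 6 of 15 with the editor alone. Median EPKM was 0.0660, 0.0685, 0.0530 and 0 in these groups. The difference was 1.33 (SE 0.28, limma adjusted p = 0.0213) for miR-465c and 1.07 (SE 0.29, limma adjusted p = 0.537) for miR-200c. Directly, miR-200c minus miR-465c was -0.26 (SE 0.24, limma adjusted p = 0.964). The Fars2 introns hold 44 miR-465c seed matches (0.0730 per kb) and 58 for miR-200c, with 46 and 59 on the other strand. The first 2 miR-465c matches are shown as examples of what such a match looks like in its surroundings, with the seed match in capitals (chr13:36131364-36131393 and chr13:36191727-36191756, + strand, GRCm38).
Fars2 match near the gene start: ttattactatgCCCTGATaatgccttcata
Fars2 next match: actgctcaggtCCCTGATgtggaaggtgag
The table gives 1 value per gene, so where in the intron the edits lie was not tested.

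Gm42980 (lincRNA, chr5:127578750-127580109, + strand) was edited in 16 of 26 miR-200c embryos, 24 of 28 miR-465c embryos, 15 of 22 AGO2-only embryos and 5 of 15 editor-alone embryos, with 68, 186, 121 and 6 edits in all. The difference was 6.61 (SE 1.47, limma adjusted p = 0.0331) for miR-465c and 3.28 (SE 1.49, limma adjusted p = 0.842) for miR-200c. On recovered edits it was 3.54 (SE 0.58, edgeR adjusted p = 8.88e-07) for miR-465c and 2.20 (SE 0.60, edgeR adjusted p = 0.0348) for miR-200c. Directly, miR-200c minus miR-465c was -3.33 (SE 1.25, limma adjusted p = 0.698), and -1.34 on recovered edits (SE 0.37, edgeR adjusted p = 0.0376). Because the intron is short, 1 edit already gives an EPKM far above the pseudocount, and the limma values mainly reflect presence or absence of edits. When each miR-465c or editor-alone embryo was left out in turn (43 fits), Fars2 kept an adjusted p of 0.00765 to 0.0483 and Gm1965 one of 8.36e-05 to 0.00309 (limma), whereas Gm42980 ranged from 0.0118 to 0.0868 and passed in 35. The number of entries called in the whole table ranged from 2 to 11. It was 11 without miR-465c embryo 6, 10 without 15, 8 without 27 and 5 without 11 or 14. Among editor-alone embryos, it was 9 without embryo 17, 7 without 2 and 6 without 5, 6, 9 or 11.

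**Figure D3:**
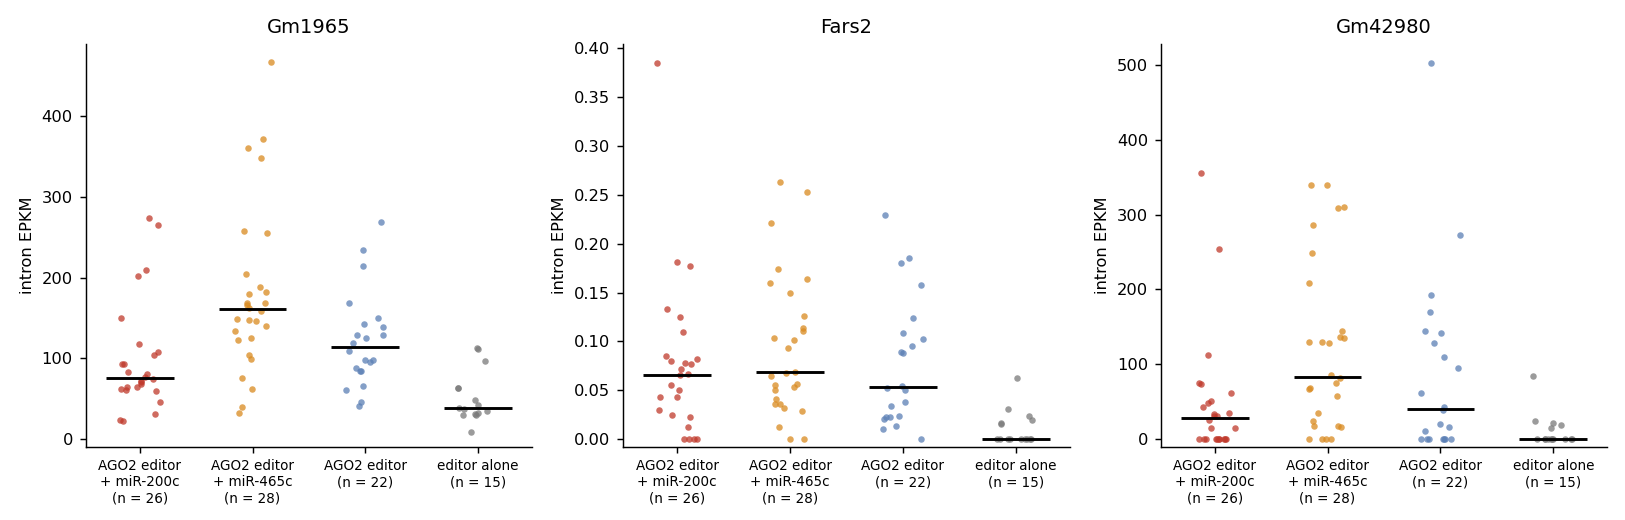
Intron EPKM of Gm1965, Fars2 and Gm42980 in each embryo of the 4 editor groups, with a bar at the median and a separate linear scale per gene. Medians for Fars2 are 0.0660, 0.0685, 0.0530 and 0 from left to right, and most editor-alone embryos are at 0 for Fars2 and Gm42980.

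Other introns with the smallest p are listed as values only. Pdp2, a regulator of pyruvate dehydrogenase that acts as its phosphatase, had a median EPKM of 24.97 with AGO2 and miR-200c, 17.5 with AGO2 and miR-465c, 14.8 with AGO2 only and 5.14 with the editor alone. Its miR-200c difference was 2.31 (SE 0.66, limma adjusted p = 0.537), and 1.85 on recovered edits (SE 0.43, edgeR adjusted p = 0.0146). Its miR-465c difference was similar, at 2.21 (SE 0.65, limma adjusted p = 0.215), and 1.68 on recovered edits (SE 0.43, edgeR adjusted p = 0.0137). Directly, miR-200c minus miR-465c was 0.10 (SE 0.56, limma adjusted p = 0.997). The lincRNA Gm11827 was edited in 21 of 26 miR-200c, 21 of 28 miR-465c, 19 of 22 AGO2-only and 4 of 15 editor-alone embryos. Its miR-200c difference was 3.76 (SE 1.03, limma adjusted p = 0.537), and 1.91 on recovered edits (SE 0.61, edgeR adjusted p = 0.111). Its miR-465c difference was 4.17 (SE 1.01, limma adjusted p = 0.0573), and 2.72 on recovered edits (SE 0.60, edgeR adjusted p = 0.00261). The introns of Pdp2 and Gm11827 hold no seed match of either microRNA. Nlrp5, a maternal-effect component of the subcortical complex of the egg, was edited in 0 of 26 miR-200c embryos and 11 of 28 miR-465c embryos, with 0 and 13 edits. Its difference was -0.86 (SE 0.21, limma adjusted p = 0.431), and -2.26 on recovered edits (SE 0.45, edgeR adjusted p = 0.00578). Exoc3l2, a relative of an exocyst subunit, had a median EPKM of 0.979 in miR-200c embryos and 0.407 in miR-465c embryos. The difference was 1.41 (SE 0.40, limma adjusted p = 0.652), and 0.95 on recovered edits (SE 0.38, edgeR adjusted p = 0.252).

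In all, 49 introns were above 0 in every AGO2-only embryo, and many lie in unnamed transcripts. The highest EPKM among the 20 that rank first belonged to Gm10801, with medians of 196 (AGO2 and miR-200c), 168 (AGO2 and miR-465c), 209 (AGO2 only) and 340 (editor alone). Its introns span 1343 bp, of which 47.4% is masked as repeat. Gm14331, whose introns are 96.5% repeat, had medians of 5.16, 5.95, 4.03 and 4.81 in the same order. For Gm10801 the editor-alone median was thus the highest of the 4, with a miR-465c difference of -0.49 (SE 0.33, limma adjusted p = 0.814), and -0.51 on recovered edits (SE 0.15, edgeR adjusted p = 0.0546). Cbx1, which encodes a heterochromatin protein, had medians of 11.3, 9.13, 9.15 and 11.7 EPKM, and Coil, which encodes the Cajal body protein coilin, had 1.64, 1.58, 1.26 and 1.57. Orc1, the largest subunit of the replication origin recognition complex, had 0.846, 0.632, 1.31 and 0.818. None of these 5 passed a limma comparison between groups.

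To ask whether the edited introns mark newly transcribed genes, their mRNA was compared between 4-cell and 2-cell controls. Counts were found for 1845 of the 2064 genes, and 1503 passed the filter on low counts in the miR-200c experiment. Of these, 424 were higher at 4-cell (28.2%, background 32.3% of 10301 genes) and 653 were lower (43.4%, background 40.2%), with a median log2 change of -0.30 against -0.19 over all genes tested (edgeR quasi-likelihood, adjusted p under 0.05). In the miR-465c experiment, with separate embryos, 282 of 1417 were higher (19.9%, background 28.3% of 9396) and 532 were lower (37.5%, background 30%), with a median of -0.33 against -0.03. In both experiments together, 253 of 1408 rose (18.0%, background 24.9%) and 447 fell (31.7%, background 26.8%), while 8 went opposite ways (background 0.563%). With each AGO2-only library counted once in the rule, 244 of 1345 rose (18.1%) and 423 fell (31.4%). The genes with recurrently edited introns thus held more falls than rises. Among the other intron entries, 703 of 2572 rose in both (27.3%) and 619 fell (24.1%). A fall to the 4-cell stage fits stored maternal RNA and RNA made briefly at the 2-cell stage alike. No oocyte or zygote library enters these comparisons, so those sources cannot be told apart. In whole-embryo libraries, a change in the number of cells that make an RNA and a change per cell also cannot be told apart. The 4-cell and 2-cell controls of the miR-200c experiment were deposited separately, so any batch between them cannot be told apart from stage.

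**Figure D4:**
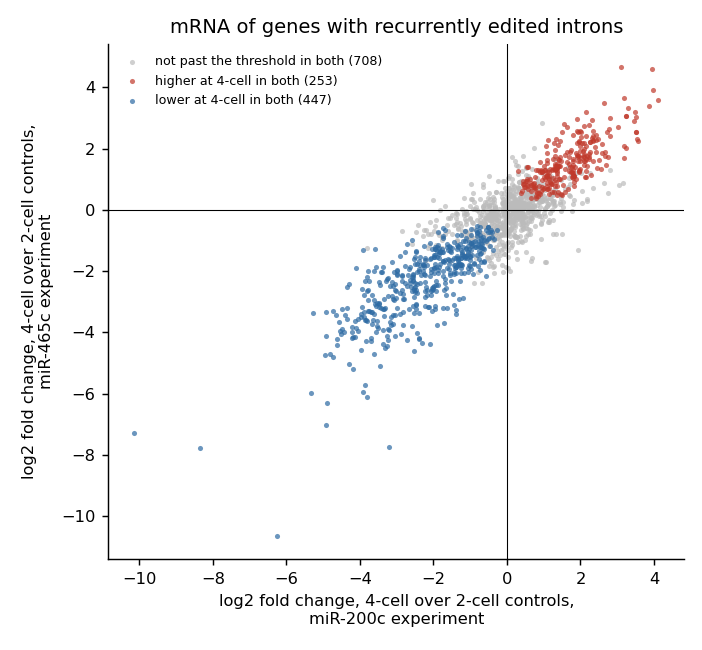
Log2 fold change of mRNA, 4-cell over 2-cell controls, for 1408 genes with recurrently edited introns that were tested in both experiments, with the miR-200c experiment on the x axis and the miR-465c experiment on the y axis. Red points (253) were higher and blue points (447) lower at 4-cell in both, at an edgeR adjusted p under 0.05.

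Falls were more frequent where introns were edited in 15 or more AGO2-only columns. Of genes whose introns were edited in 6 to 8 AGO2-only columns, 117 of 576 rose in both experiments and 173 fell. For 9 to 14 columns the numbers were 104 and 147 of 548, for 15 to 22 columns 32 and 111 of 261, and for all 23 columns 0 and 16 of 23. Median intron length was 38899, 50353, 69881 and 74786 bp in these 4 classes, so it moved with the same split. Where introns reached the median of the set (47921 bp) or more, 58 of 646 recurrently edited genes rose (8.98%) and 266 fell (41.2%), and among the other entries of that length 52 of 431 rose (12.1%) and 155 fell (36.0%). With shorter introns, 195 of 760 recurrently edited genes rose (25.7%) and 180 fell (23.7%), against 650 (30.4%) and 464 (21.7%) of 2137 other entries. Genes with long introns therefore fell more often whether or not their introns were recurrently edited, and the part of length in the pattern was not tested further.

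**Figure D5:**
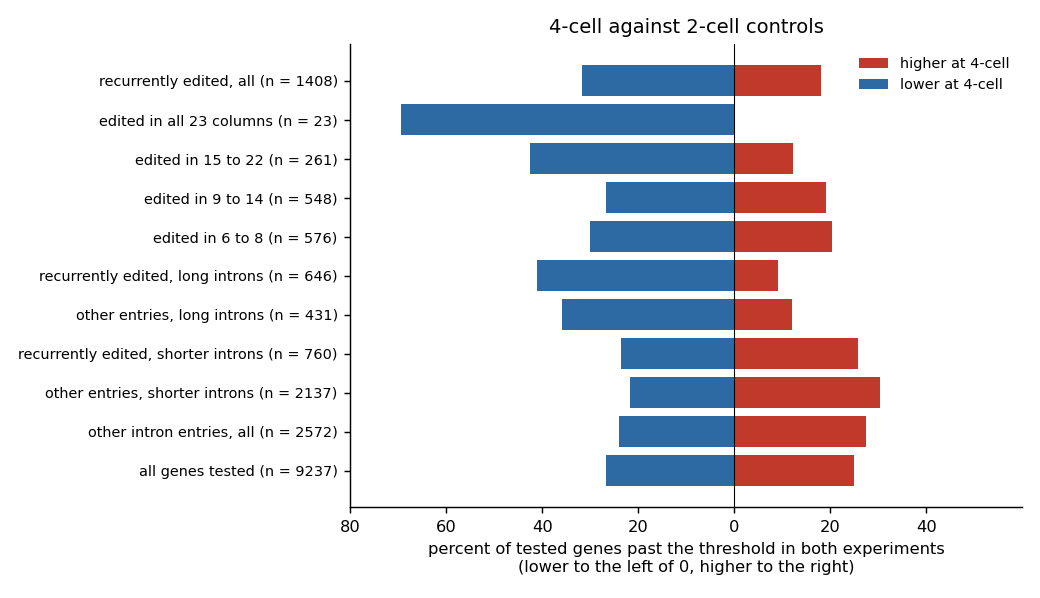
Percent of tested genes past the threshold in both experiments, lower at 4-cell to the left of 0 and higher to the right, for genes with recurrently edited introns, their split by number of AGO2-only columns and by intron length, the other intron entries and all genes tested. The share that fell is 69.6% for the 23 genes edited in all columns and 31.7% for the whole set, against 26.8% of all genes.

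Several of the most recurrently edited genes had abundant mRNA at the 2-cell stage that was largely gone at 4-cell. Gm1965 ran from 6.94 to 811 CPM (median 76.4) in 4-cell and from 449 to 8348 CPM (median 3908) in 2-cell controls of the miR-200c experiment. In the miR-465c experiment the medians were 73.4 CPM at 4-cell and 998 CPM at 2-cell, and it fell by 4.40 (SE 0.46) and 3.42 (SE 0.44) on the log2 scale (edgeR adjusted p = 1.54e-12 and 4.5e-09). Zbed3, a BED-type zinc finger gene of the egg's subcortical complex, had medians of 180 CPM at 4-cell and 9173 CPM at 2-cell in the first experiment, and of 286 and 4878 CPM in the other, a log2 change of -4.66 (SE 0.41) and -3.44 (SE 0.40), with edgeR adjusted p = 5.62e-15 and 4.61e-10. D6Ertd527e and Gm12789 moved the same way, with log2 changes of -3.93 and -3.92 in the first experiment and -2.59 and -5.95 in the other. Cbx1 fell in the first experiment (log2 -1.81, SE 0.26, edgeR adjusted p = 1.91e-08) and did not pass in the other (-0.02, SE 0.34, edgeR adjusted p = 0.967). Coil passed in neither (-0.32 and -0.24).

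Among named protein-coding genes, the largest falls included Smarca2, Gphn, Ebf1, Pdgfrl, Txlnb, Atp10b and Usp17lc. Smarca2, an ATPase of the SWI/SNF remodelling complex, ran from 0 to 69.9 CPM (median 10.0) at 4-cell and from 79.3 to 565 CPM (median 283) at 2-cell in the miR-200c experiment, without overlap between stages. Its log2 change was -4.31 (SE 0.39) there and -5.04 (SE 0.56) in the miR-465c experiment (edgeR adjusted p = 1.18e-14 and 1.59e-10). Gphn, the synaptic scaffold and cofactor enzyme gephyrin, and Ebf1, a B-cell transcription factor, each had a 4-cell median of 0 CPM, with 2-cell medians of 75.5 and 43.1 CPM in the miR-200c experiment. Their introns span 454645 and 381019 bp and hold exons of other genes. Pdgfrl had medians of 2.72 CPM at 4-cell and 132 CPM at 2-cell. Usp17lc is described with the 2-cell genes below.

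The 8 largest rises were Syngr1, Tfeb, Rragd, Eml2, Card14, Map7, Wdr18 and Rpl36a, a ribosomal protein gene. Syngr1, a synaptic vesicle protein gene, ran from 20.2 to 402 CPM (median 206) at 4-cell and from 0 to 40.2 CPM (median 7.83) at 2-cell, a log2 change of 3.98 (SE 0.39) in the miR-200c experiment and 3.91 (SE 0.44) in the miR-465c experiment (edgeR adjusted p = 2.41e-13 and 1.51e-10). Tfeb, a regulator of lysosome genes, had medians of 70.8 and 1.39 CPM at 4-cell and 2-cell, and Rragd, a GTPase that signals amino acid supply at the lysosome, had 36.0 and 4.41 CPM.

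Genes of the 2-cell stage and of genome activation were present among the recurrently edited introns. The list holds 44 genes, of which 12 have an intron entry and 5 were recurrently edited (41.7% of entries, against 24.6% over the table). Dppa2 and Dppa4, chromatin factors that act upstream of genome activation, and Klf5, a transcription factor of early lineages, rose in both experiments, and Usp17lc and Obox1 fell. Dppa2 ran from 1027 to 2950 CPM (median 2099) at 4-cell and from 98.6 to 1007 CPM (median 235) at 2-cell in the miR-200c experiment, a log2 change of 2.68 (SE 0.19, edgeR adjusted p = 2.5e-18). Obox1, an oocyte and early-embryo homeobox gene, had medians of 25.6 CPM at 4-cell and 441 CPM at 2-cell, a log2 change of -3.81 (SE 0.41, edgeR adjusted p = 6.55e-12). Usp17lc, a deubiquitinase gene of the 2-cell stage, had a 4-cell median of 0 CPM and a 2-cell median of 101 CPM. Of the whole list, 8 of 38 tested genes rose in both experiments and 27 fell, so a rise at 4-cell is not what most of these genes show.

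Maternal transcripts were present as well, with 17 of 49 listed genes in the intron table and 6 recurrently edited. Btg4, an adaptor for maternal mRNA decay, had medians of 98.2 CPM at 4-cell and 3646 CPM at 2-cell in the miR-200c experiment (log2 -3.67, SE 0.42, edgeR adjusted p = 3.26e-11). Its introns, which include exons of other genes, were above 0 in 12 of 26 miR-200c, 20 of 28 miR-465c, 15 of 22 AGO2-only and 5 of 15 editor-alone embryos. Nlrp5 also fell, as did Fmn2, an actin nucleator needed to place the oocyte spindle (log2 -3.12 and -3.54 in the same experiment). Dppa3, a maternal protector of DNA methylation, and Trim28, a corepressor of transposons, rose (0.53 and 0.96), and Oog1 was not tested. Across the list, 3 of 46 tested genes rose in both experiments and 39 fell.

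Ribosomal protein genes rose. Of 82 listed symbols for cytosolic ribosomal proteins, 40 have an intron entry and 13 were recurrently edited, of which 12 rose in both experiments. Rpl10 had medians of 1271 CPM at 4-cell and 214 CPM at 2-cell in the miR-200c experiment (log2 2.25, SE 0.20, edgeR adjusted p = 1.02e-14). The exception, Rpl3l, a muscle paralog, had -0.51 and -1.56 (edgeR adjusted p = 0.34 and 0.0536). Of the whole list, 79 of 81 tested rose, and processed copies of these genes make their counts uncertain. Genes of ribosome biogenesis (8 of 23 entries) had 4 rises in both experiments and 0 falls, beside 23 and 1 of 44 in the whole list. Genes that host small nucleolar RNAs in their introns (5 of 10 entries) had 3 rises and 0 falls, beside 15 and 1 of 24. Among these, Gas5, a short-lived host RNA, was edited in 24 of 26 miR-200c, 24 of 28 miR-465c, 16 of 22 AGO2-only and 13 of 15 editor-alone embryos, and Eef2, the translation elongation factor, rose by 1.90 (SE 0.13, edgeR adjusted p = 2.15e-18).

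Spliceosome and SR protein genes (8 of 29 entries) had 3 rises and 1 fall, beside 22 and 4 of 60 in the whole list. Hnrnpa1, a splicing repressor, rose by 1.33 (SE 0.16) and Srsf10, a splicing regulator, changed by -1.22 (SE 0.14) in the miR-200c experiment (edgeR adjusted p = 1.38e-10 and 7.67e-11). Genes known for retained introns (5 of 13 entries) had 1 rise and 1 fall, beside 7 and 6 of 32. Among genes of the microRNA pathway, 5 of 9 entries were recurrently edited, and Drosha, Pan3, Tnrc6b and Tnrc6c fell while Xpo5 rose, beside 3 rises and 8 falls of 15 in the whole list. Drosha, the nuclear enzyme that cuts primary microRNAs, was edited in 26 of 26 miR-200c, 28 of 28 miR-465c, 21 of 22 AGO2-only and 14 of 15 editor-alone embryos, with median EPKM of 0.303, 0.303, 0.362 and 0.351. Its mRNA had medians of 32.9 CPM at 4-cell and 106 CPM at 2-cell (log2 -1.76, SE 0.18, edgeR adjusted p = 2.26e-12). By comparison with 24.6% over the table, recurrently edited introns made up between 27.6% and 55.6% of the entries in these lists.

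Markers of other cells were low apart from 1 gene in each list. Of 15 cumulus and granulosa markers, Amh, Fshr, Inha and Lhcgr were at 0 in every 2-cell control, and without Amhr2 the list summed to 0 to 16.8 CPM at 4-cell and 0 to 42.8 CPM at 2-cell in the miR-200c experiment, and to 0 to 13.7 and 0 to 76.3 CPM in the miR-465c experiment. Amhr2, a receptor gene that was recurrently edited, had medians of 298 and 136 CPM at 4-cell and 2-cell in the miR-200c experiment. Of 10 sperm and testis markers, Akap4, Tnp1 and Tnp2 were at 0 in every 2-cell control, and without Odf2 the list summed to at most 20.6 CPM in any control group. Odf2, which was also recurrently edited, had medians of 67.6 and 421 CPM. The maternal list summed to a median of 28094 CPM in 2-cell controls of the miR-200c experiment and 21206 CPM in those of the miR-465c experiment.

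In the main edgeR fits, injected microRNA without an editor changed no mRNA of this set past the threshold at the 2-cell stage. With the low dose of miR-200c, 0 of 1586 genes with recurrently edited introns passed (background 0.0%). At an unadjusted p under 0.05 were 16 of them, against 136 of all 11202 genes tested. With the mid dose 0 of 1586 passed (background 0.0%), with a median log2 change of -0.06 against 0.04 over all genes. At an unadjusted p under 0.05 were 352 of the 1586, against 1857 of all 11202 genes tested. With miR-465c 0 of 1479 passed (background 0.0%), with 11 at an unadjusted p under 0.05, against 94 of all 9682 genes tested (edgeR throughout). Having 0 calls does not show that these mRNAs were unchanged. For the mid dose the calls depended on the tool and the model. DESeq2 called 480 genes in the whole table, of which 25 in this set were higher and 76 lower. A fit by edgeR with embryo number as a block also called genes, as given below. Shares over all genes each way are not given for these fits, so their counts are no result about the set. Both miR-200c doses share their controls. For the introns called above, the mRNA of Gm1965 had log2 changes of 0.13 (SE 0.23) with the low dose, 0.39 (SE 0.24) with the mid dose and 0.12 (SE 0.29) with miR-465c, with edgeR adjusted p = 1.00, 0.404 and 1.00.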

How the data were processed

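RSEM was run by the authors against mm10 to give expected counts per gene, per the labels' protocols, and these were rounded to whole numbers here. Other tools named in the submitters' processing notes, without their role, are STAR, featureCounts, FastQC and cutadapt, together with DESeq2 1.48.2 under R 4.5.1. The editing signal in introns, coding sequence and 3' UTRs was deposited by the authors per gene and embryo as EPKM, which the sources used here do not spell out. Of 8393 intron entries, 6966 (83.0%) gave whole edits once divided by intron length (gene span minus merged exons) and a denominator fitted per embryo, and 99.98% of their values above 0 were whole within 0.02 edits. Columns without a sample label (3 per editing table) were not used. Columns of 1 group with identical entries above 0 and a constant ratio (2 pairs among 93) were averaged and counted once, except in the rule that chose the introns. The members and lists were chosen with earlier results of these data known.

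Stage and dose comparisons used edgeR 4.0.16 (quasi-likelihood, TMM, expression filter) in R 4.3.3, within each experiment. Introns were compared with limma 3.58.1 on log2(EPKM + 0.0356), the pseudocount being the 10th percentile of values above 0, without AGO2-only embryos. p-values were adjusted by Benjamini-Hochberg over all features of a fit, with a threshold of 0.05. Permutation tests used scipy 1.17.1. For rates by region, each entry's values were divided by their smallest step and summed. Named genes were the 20 most recurrent introns, the 8 largest stage changes each way that passed in both experiments with a mean of at least 10 CPM at the higher stage (Gm and Rik symbols passed over), up to 5 introns called each way in a limma comparison or else the 3 with the smallest p, list members, and 3 entries on each side of the threshold. One gene that this rule names is not reported here. Repeat content is the soft-masked share of the reference. Alternatives were DESeq2 1.42.0, other filters and pseudocounts, embryo number as a block, Fisher's exact test, edgeR on recovered edits and leaving out embryos. The fits were tested on simulated data. Depth and denominators are given above, and the editing files give no read coverage, so no counting interval is given for EPKM.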

Additional observations from a re-analysis of the deposited data

How the results depend on the processing

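Counts of calls moved most with the filter and the test. Without a filter on low counts, 11801 and 9556 genes were called between stages in the miR-200c and miR-465c experiments, and 1206, 1410 and 1548 with low-dose miR-200c, mid-dose miR-200c and miR-465c. Of these, 13, 20 and 18 genes with recurrently edited introns were higher and 11, 39 and 13 lower. For the mid dose, DESeq2 called 480 (25 higher and 76 lower in the set), embryo number as a replicate block 410 (31 and 57), and the embryos of shared numbers without the block 50 (9 and 1). For these unfiltered and alternative fits, shares over all genes each way are not given, so the counts in the set are no result about it. Same-numbered embryos deviated together (correlation over 0.1) in 10 of 23 pairs for the low dose, 6 of 20 for the mid dose, 7 of 21 for miR-465c, 1 and 3 of 20 between stages and 0 in the editing comparisons. This was not so in every pair, and the main fits did not use the numbers. A pairing need not show in every pair, so whether the numbers pair embryos was not settled. The cause of these shifts was not tested.

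For intron editing with miR-465c against editor alone, 6 entries were called with a pseudocount of 1, 14 with entries above 0 in at least 25% of embryos and 0 with Fisher's exact test (159 entries below an unadjusted 0.05), all of them in the set and higher. The choice of the set on AGO2 editor embryos favours such entries. Recovered edits gave 40 (26 higher and 3 lower in the set), and 35 (20 and 4) without the 3 embryos of lowest denominator. With miR-200c they gave 25 (12 and 3) and 22 (11 and 3), and between both microRNAs 26 (5 and 8) and 20 (2 and 8). Leaving out 1 embryo at a time gave 2 to 11 calls. Gm1965 lost its call with Fisher's exact test, Fars2 with that and pseudocounts of 0.231 and 1, and Gm42980 with that, with all entries tested and with embryos of shared numbers. The intron rate with miR-200c reversed to 0.955 of editor alone without the 3 shallow embryos, and a rule of 50% left 746 introns. With every deposited column counted as an embryo, limma called the same numbers (0, 3 and 0). Of intron values, 83.9% were 0, which limits comparisons of single introns.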
